A study of Mus musculus with 18 samples.

Results

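The retinas of light-exposed, vehicle-treated mice were compared with those of naïve mice over all genes. The comparison holds 6 of the 9 mice of the series, 3 in each group, chosen by their labels, and 12 of the 18 sequencing runs, since the library of each mouse was read on 2 flow cells and both runs were summed. All mice were wild-type BALB/cJ, an albino strain, aged 8 to 10 weeks. Vehicle mice were dark adapted for 16 h, had their pupils dilated, were exposed to white light of 15000 lux for 1 h and were analysed 4 days later. They received daily intraperitoneal injections of the vehicle DMSO from the day before the exposure, whereas naïve mice had neither light nor treatment. The effects of light, dark adaptation, pupil dilation and injection therefore cannot be told apart. The other mice of the series had the same light exposure and daily injections of 15 mg/kg of TD139, an inhibitor of galectin-3, in DMSO. They entered only the shared fit. The question addressed is which retinal cell types and pathways differ between both groups.

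Rod photoreceptors, the most numerous cells of the mouse retina, capture light with a visual pigment in their outer segments and signal through ribbon synapses to bipolar cells. Bright light overloads this machinery and kills photoreceptors, above all in albino animals, whose eyes lack screening pigment. Müller cells, the radial glia that span the retina, respond by gliosis and by releasing trophic cytokines. Microglia, the resident macrophages of the retina, leave their resting layers, migrate towards dying photoreceptors and engulf them.

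Each mouse gave between 26770469 and 27973856 counts on genes. Levels are given in CPM, the counts of a gene relative to the library size scaled with the TMM factors of edgeR, and values are listed for mice 1 to 3 of each group, naïve before vehicle. Genes are said to be called where the adjusted p was under 0.05, and log2 fold changes are vehicle minus naïve. A count of 3, used as the detection floor, was worth 0.101 to 0.115 CPM. Vehicle mouse 2 stood apart. Its summed level of 18 lens genes was 12072 CPM, against 160.1 and 196 in the other vehicle and 598, 414 and 216 in the naïve mice. Its summed level of the skeletal muscle genes was 1432 CPM, against 12.1 to 18.4 in the others, so that this library held lens and muscle RNA. The other vehicle mice had less of most lens transcripts than the naïve mice. The median log2 difference of the lens list from the naïve mean was -3.48 and -3.23 in vehicle mice 1 and 3. It was 0.63, 0.17 and -0.63 in the naïve mice. Xist, transcribed from the inactive X chromosome, stood at 0.0768, 1009 and 1098 CPM in naïve and 1.75, 0.177 and 922 CPM in vehicle mice, and the Y-linked Ddx3y at 24, 0.226 and 0 against 25.9, 27.3 and 0 CPM, so that 1 naïve and 2 vehicle mice had more than 20 CPM of Ddx3y and the other 3 mice less than 1 CPM. The part of sex in the results was not tested, and the counts without vehicle mouse 2 are given below.

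In edgeR's quasi-likelihood test with Benjamini-Hochberg adjustment, 746 of 15196 tested genes were higher in vehicle than in naïve retinas, or 4.91%, and 439 were lower, or 2.89%. The median log2 fold change of the higher genes was 1.11 and that of the lower genes -0.57, and 420 of the former but 21 of the latter passed a log2 fold change of 1 in size. At the threshold of 2, 188 genes were higher (1.24%) and 1 was lower (0.00658%). In all 746 and all 439 genes the 3 vehicle mice lay beyond the 3 naïve mice, which was also true of 16.7% of all tested genes in the upward and 16.6% in the downward direction. The median over all tested genes was -0.00175.

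**Figure D1:**
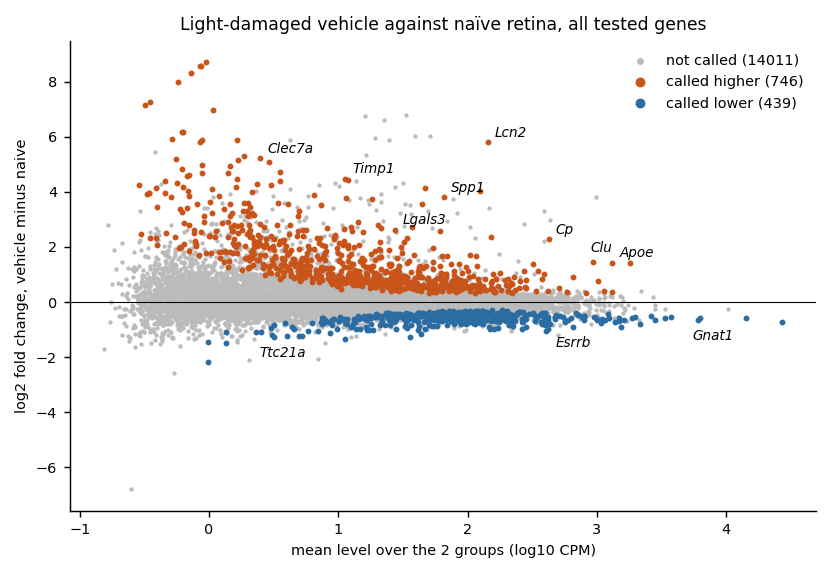
Each point is a tested gene, with its mean level over both groups (log10 CPM) on the horizontal axis and its log2 fold change (vehicle minus naïve) on the vertical axis. Called genes at low and middle levels lie mostly above 0 and reach far up, whereas the most abundant called genes, such as Gnat1, lie a little below 0. The 31 called genes whose naïve mice all had at most 3 counts are plotted at fitted values that depend on the prior count.

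These counts changed when single mice were left out. Leaving out a naïve or vehicle mouse also makes its group smaller, so that a loss of power and the weight of that mouse cannot be told apart. Without naïve mouse 2, edgeR called 1 gene, the matrix protein gene Thbs1, and 3279 genes had an unadjusted p under 0.05. Without naïve mouse 1, 62 genes were higher and 29 lower, and without naïve mouse 3, 140 and 77. Leaving out vehicle mouse 1 left 219 and 30, leaving out vehicle mouse 3 left 65 and 19, and leaving out vehicle mouse 2, with its lens and muscle RNA, left 620 and 353. TD139-treated mice entered the fit through the filter, the scaling and the shared estimate of the spread. Without TD139 mouse 1 there were 1167 and 815 genes, without TD139 mouse 2 665 and 313, and without TD139 mouse 3 622 and 279. No member of the gene lists below but Thbs1 was called without naïve mouse 2. All 746 and 439 genes kept their sign in every fit in which they were tested. The balance of directions depended on the scaling: 63.0% of the called genes were higher as reported, 77.6% with library size alone and 31.9% after a correction for transcript length and GC content, with 952 higher and 2034 lower genes.

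Of 57 gene lists of cell types and pathways, 34 had members called higher and none lower, 7 had members called lower and none higher, 5 had both and 11 had none. Lists of rods, photoreceptor transcription factors, the photoreceptor cilium and the ribbon synapse had the lowest medians. The skeletal muscle, Fc receptor, lens, pan-myeloid and complement lists had the highest medians, of which the muscle and lens lists had no called member, and negative medians without vehicle mouse 2. The counts of called members fell when single mice were left out: no list had more than 4 called members without naïve mouse 1, 1 without naïve mouse 2, 6 without naïve mouse 3 or 4 without vehicle mouse 3. Counts and medians describe these lists, and no test of a list was made.

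**Figure D2:**
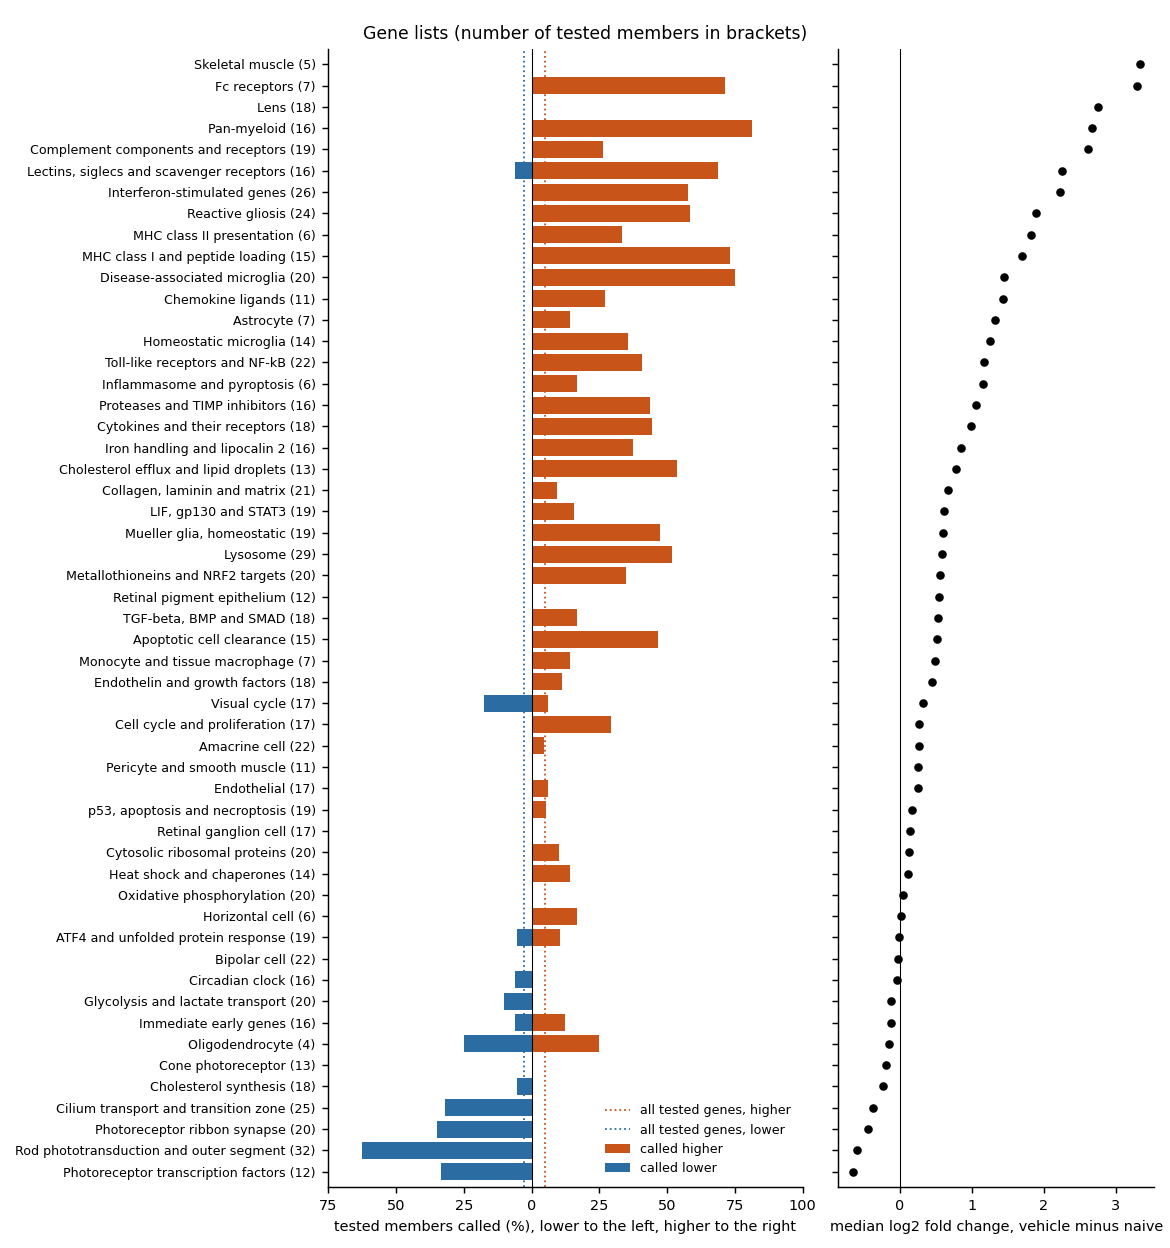
Every list with at least 3 tested members, sorted by its median, is shown with the percentage of tested members called higher (right) and lower (left) and, in the second panel, its median log2 fold change (vehicle minus naïve). Dotted lines mark the share of all tested genes, 4.91% higher and 2.89% lower. The lens and skeletal muscle lists have high medians but no called member, and 81.2% of the pan-myeloid list but 0% of the cone list was called.

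Most rod transcripts fell. Of 32 tested genes of rod phototransduction and the outer segment, 20 were called lower and 0 higher, all 32 had a negative log2 fold change and the median was -0.59. Their summed level was 134788, 123425 and 119088 CPM in the naïve and 84359, 95775 and 69072 CPM in the vehicle mice, or 11.6 to 13.03% of all gene counts against 7.39 to 9.71%. In bulk RNA, fewer rods and less RNA per rod cannot be told apart. Gnat1, the alpha subunit of rod transducin, stood at 19119, 17506 and 15239 against 12207, 12978 and 9212 CPM (log2 fold change -0.59, SE 0.14, adjusted p = 0.0298). Its groups did not overlap, and vehicle mouse 3 had the lowest value. The same held for Pde6a, a catalytic subunit of the rod phosphodiesterase, with 1563, 1658 and 1960.0 CPM in naïve and 1146, 1114 and 869.9 CPM in vehicle mice (log2 fold change -0.73, SE 0.16, adjusted p = 0.0254).

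The steepest falls among the called genes of the list were in Grk1, the photoreceptor kinase that starts the shut-off of the visual pigment, with 1846, 1907 and 2273 CPM in naïve and 1082, 1209.7 and 935 CPM in vehicle mice (log2 fold change -0.90, SE 0.17, adjusted p = 0.0209), and in Pdc, the transducin-binding protein phosducin, with 3121, 2365 and 2649.9 against 1541, 1788 and 1385 CPM (log2 fold change -0.79, SE 0.16, adjusted p = 0.0236). Rdh12, a retinol dehydrogenase of the photoreceptor inner segment, had 819, 656 and 627 against 403, 523 and 359 CPM (log2 fold change -0.71, SE 0.18, adjusted p = 0.0429). Every vehicle mouse was below every naïve mouse in these 3 genes. Sag, the rod arrestin that binds the phosphorylated pigment, was among the most abundant rod genes and had overlapping groups, at 9279.7, 11229 and 13030.3 CPM in naïve and 9270.1, 10202 and 8607 CPM in vehicle mice (log2 fold change -0.26, SE 0.13, adjusted p = 0.213). Without vehicle mouse 2, 24 of the 32 rod genes were called lower and the median was -0.73. Without naïve mouse 1, naïve mouse 2, vehicle mouse 1 or vehicle mouse 3, 0 were called, without naïve mouse 3, 1, and without TD139 mouse 3, 11. The median was -0.47 without vehicle mouse 3.

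Some of the transcription factors that specify and maintain photoreceptors fell too. Of 12 tested members, 4 were called lower and 0 higher, and the median log2 fold change was -0.65. Crx, the homeodomain factor that activates most photoreceptor genes, had 1333, 1391 and 1348 CPM in naïve and 859, 969.7 and 726 CPM in vehicle mice (log2 fold change -0.67, SE 0.13, adjusted p = 0.0224). Nr2e3, an orphan nuclear receptor that represses cone genes in rods, had 811, 863 and 845 against 619, 609.5 and 575 CPM (log2 fold change -0.48, SE 0.10, adjusted p = 0.0249), and Samd11, a sterile alpha motif protein of photoreceptors, 504, 460.1 and 552 against 313, 313 and 336 CPM (log2 fold change -0.66, SE 0.10, adjusted p = 0.0127). In these 3 genes the vehicle mice were below all naïve mice. The rod-determining factor Nrl did not pass the test, although its groups did not overlap, at 3135, 2455 and 2125 against 1725, 1969 and 1225 CPM (log2 fold change -0.65, SE 0.19, adjusted p = 0.0616). Esrrb, an oestrogen-related receptor expressed in rods, had the lowest log2 fold change of the called rod genes and photoreceptor factors. Its values were 605, 538 and 525 CPM in naïve and 262, 336 and 254 CPM in vehicle mice (log2 fold change -0.97, SE 0.14, adjusted p = 0.0127), so that the highest vehicle mouse lay well below the lowest naïve mouse.

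The promoter of Esrrb is shown because it belongs to the photoreceptor factor that fell most. It is the RefSeq window of 250 bases before the start of the gene, chr12:86360867-86361116 on the + strand of GRCm38.p6, the assembly of the mm10 build, and the more upstream of 2 windows of the gene. Capitals mark a match to the STAT motif TTCNNNGAA, 178 to 170 bases before the start. No match to the core TAATCC bound by CRX was found in the window on either strand.
Esrrb: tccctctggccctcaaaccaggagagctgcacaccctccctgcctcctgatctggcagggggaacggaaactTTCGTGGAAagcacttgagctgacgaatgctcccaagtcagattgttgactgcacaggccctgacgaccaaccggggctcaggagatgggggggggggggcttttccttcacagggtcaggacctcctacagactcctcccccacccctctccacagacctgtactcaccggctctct

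Genes of the photoreceptor cilium and of synaptic transmission were called in the same direction. The connecting cilium carries all outer segment proteins. Of 25 tested cilium genes, 8 were called lower and 0 higher, with a median log2 fold change of -0.37. Rpgrip1, which anchors the transition zone protein RPGR, had 534, 593 and 537 CPM in naïve and 354, 330.1 and 269 CPM in vehicle mice (log2 fold change -0.80, SE 0.15, adjusted p = 0.0192). Nphp4, a nephrocystin of the transition zone, had 39.5, 53.2 and 61.9 against 30.1, 33.5 and 30.8 CPM (log2 fold change -0.71, SE 0.16, adjusted p = 0.0297). Both genes had all vehicle mice below all naïve mice. Subunits of the BBSome, the coat complex that removes proteins from the outer segment, were also lower, with log2 fold changes of -0.55 (adjusted p = 0.0401) for Ttc8, -0.51 (adjusted p = 0.0289) for Bbs2 and -0.32 (adjusted p = 0.0483) for Bbs4. Ttc21a, a low-abundance relative of an intraflagellar transport gene, had 3.04, 4.75 and 5.72 against 1.5, 1.55 and 2.49 CPM and the largest fall of the list (log2 fold change -1.28, SE 0.30, adjusted p = 0.0307).

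At the ribbon synapse, 7 of 20 tested genes were called lower and 0 higher, with a median log2 fold change of -0.44. Unc13b, a vesicle priming factor, had 421, 412 and 401 CPM in naïve and 267, 266 and 241 CPM in vehicle mice (log2 fold change -0.67, SE 0.12, adjusted p = 0.018). Elfn1, which pairs rods with their bipolar cells, had 108, 109 and 123 against 75.7, 81.9 and 57.7 CPM (log2 fold change -0.66, SE 0.18, adjusted p = 0.0468). Cabp4, the calcium sensor of the photoreceptor calcium channel, had 357, 329.9 and 289.9 against 199, 248 and 188 CPM (log2 fold change -0.62, SE 0.13, adjusted p = 0.0235), and Cplx4, the complexin of photoreceptor ribbons, 577, 559 and 562 against 369, 436 and 359 CPM (log2 fold change -0.55, SE 0.13, adjusted p = 0.0295). In each of these 4 genes all vehicle mice were below all naïve mice. Slc17a7, the vesicular glutamate transporter of photoreceptors and bipolar cells, had a log2 fold change of -0.28 with an adjusted p of 0.123.

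Few metabolic genes were called. Photoreceptors run aerobic glycolysis, and of 20 tested genes of glycolysis and lactate transport 2 were called lower and 0 higher (median -0.12). Those called were the hexokinase gene Hk2, the isoform of photoreceptors, with 335, 282 and 488 CPM in naïve and 187, 204 and 192 CPM in vehicle mice (log2 fold change -0.92, SE 0.24, adjusted p = 0.0466), and the lactate dehydrogenase gene Ldha, with 1597, 1265 and 1583 against 861, 1151 and 965 CPM (log2 fold change -0.58, SE 0.14, adjusted p = 0.0345). The pyruvate kinase gene Pkm (log2 fold change -0.25, adjusted p = 0.178) and the aldolase gene Aldoa (log2 fold change -0.25, adjusted p = 0.173) did not pass. Of 20 nuclear genes of oxidative phosphorylation, 0 were called by edgeR, 1 had an unadjusted p under 0.05 and DESeq2 called 0 as well, and the median was 0.05. Of 17 genes of the visual cycle, 1 was called higher and 3 were called lower, the latter all photoreceptor genes: Rdh12, Abca4, which clears retinal from the discs (log2 fold change -0.64, adjusted p = 0.0377), and Rbp3, which shuttles retinoids between cells (log2 fold change -0.55, adjusted p = 0.0284). The median of the visual cycle list was 0.32, and 11 of its members had a positive log2 fold change.

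**Figure D3:**
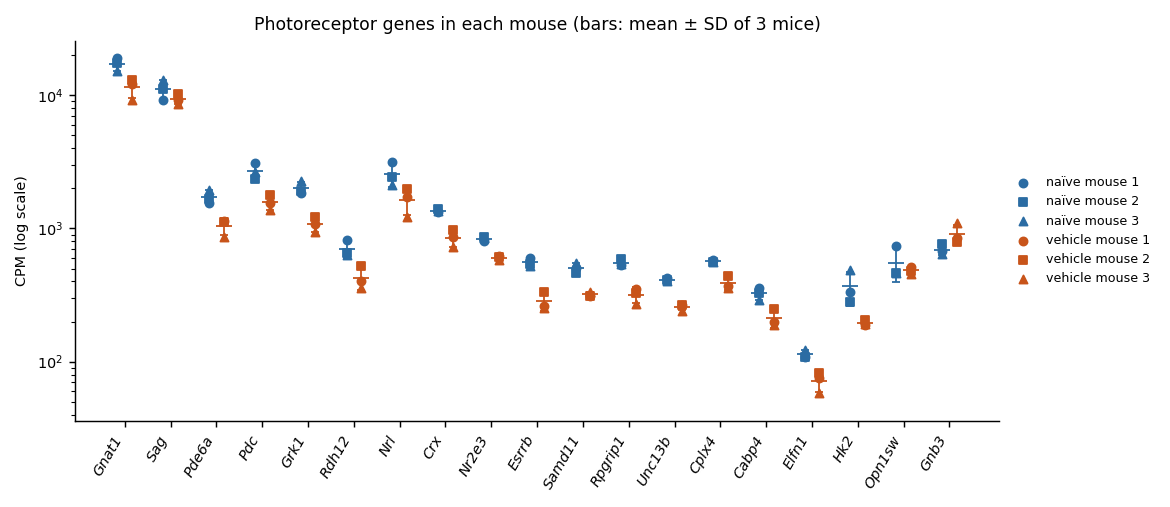
CPM (log axis) of 19 photoreceptor, synapse and metabolic genes in each of the 3 naïve (blue) and 3 vehicle mice (orange), with marker shapes for mice 1 to 3 and bars for mean ± SD. The vehicle mice lie below the naïve mice in 16 of the 19 genes, whereas both groups overlap for Sag and for the short-wavelength opsin gene Opn1sw, and Gnb3 of cones and bipolar cells lies higher in vehicle mice without passing the test.

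Other neurons showed few calls. Of 13 cone genes none was called by edgeR, 2 had an unadjusted p under 0.05, DESeq2 called 1, and the median log2 fold change was -0.19, but 0.076 without naïve mouse 1. Their summed level was 2845, 2487 and 2102 CPM in naïve and 2476, 2377 and 2540.1 CPM in vehicle mice, with overlapping groups. Opn1sw, the short-wavelength cone pigment, had 737, 462 and 462 against 514, 479 and 459 CPM (log2 fold change -0.19, SE 0.16, adjusted p = 0.472), and Arr3, the cone arrestin, 384, 406 and 182 against 267, 242 and 163 CPM (log2 fold change -0.53, SE 0.29, adjusted p = 0.269). Both cone genes had overlapping groups. Gnb3, the transducin beta subunit that cones share with ON bipolar cells, had 676, 759.9 and 638 against 845, 795 and 1092 CPM (log2 fold change 0.40, SE 0.16, adjusted p = 0.13), above all naïve mice in all vehicle mice.

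Among 22 bipolar cell genes none was called by edgeR, 4 had an unadjusted p under 0.05, DESeq2 called 1 higher and 2 lower, and the median was -0.03. Among 17 ganglion cell genes neither tool called one, 2 had an unadjusted p under 0.05 and the median was 0.15. In the amacrine and horizontal cell lists 1 gene each was called. Tac1, a substance P precursor of amacrine cells, had 20.5, 19.2 and 18.7 CPM in naïve and 29.7, 25.9 and 33.3 CPM in vehicle mice (log2 fold change 0.61, SE 0.13, adjusted p = 0.0269) and was the 1 called gene of 22 amacrine genes, a share near the 4.91% of all tested genes. The median of these was 0.26, 21 were positive, 9 had an unadjusted p under 0.05, and DESeq2 called 6 and limma voom 10 higher. Calb1, the calcium-binding protein calbindin of horizontal and some amacrine cells, had 79.9, 71.7 and 67 against 107, 88.8 and 96.2 CPM (log2 fold change 0.42, SE 0.11, adjusted p = 0.045) and was the 1 called gene of 6 horizontal cell genes. All levels are relative to the counts of the same library, and levels per retina were not measured.

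Many Müller glia genes rose. Of 19 genes of resting Müller cells, 9 were called higher and 0 lower and their median log2 fold change was 0.60, and of 24 genes of reactive gliosis 14 were called higher and 0 lower, with a median of 1.89. Crym, which binds thyroid hormone in the cytosol, had 58.9, 42.6 and 47.2 CPM in naïve and 259, 150.4 and 357 CPM in vehicle mice (log2 fold change 2.37, SE 0.45, adjusted p = 0.0286). Clu, the secreted chaperone clusterin, had 834, 1158 and 948 against 2141, 2978 and 2794 CPM (log2 fold change 1.43, SE 0.30, adjusted p = 0.0286). Sox2, a factor of Müller cell identity, had 32, 28.8 and 28.1 against 61, 48.1 and 59.7 CPM (log2 fold change 0.92, SE 0.15, adjusted p = 0.0133). The groups did not overlap in these 3 genes. Glutamine synthetase Glul, the classical Müller enzyme and the most abundant gene of the list, had overlapping groups, with 2933, 2328 and 2497 against 3054, 2873 and 2772 CPM (log2 fold change 0.16, SE 0.10, adjusted p = 0.325).

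The most abundant gliosis genes were the filament gene Vim, with 187, 262 and 205 CPM in naïve and 414, 532 and 497 CPM in vehicle mice (log2 fold change 1.14, SE 0.22, adjusted p = 0.0216), and Cp, the copper ferroxidase ceruloplasmin, with 101, 157 and 173 against 686, 557 and 864 CPM (log2 fold change 2.29, SE 0.40, adjusted p = 0.0235). Serpina3n, a secreted protease inhibitor of the acute phase, had 10.8, 15.1 and 17.4 against 148, 132 and 432 CPM (log2 fold change 4.04, SE 0.86, adjusted p = 0.0434), highest in vehicle mouse 3. In all of these genes the vehicle mice were above the naïve mice. S100a6, a calcium-binding protein, had 9.57, 12.6 and 7.37 against 38.2, 90.2 and 65 CPM (log2 fold change 2.71, SE 0.63, adjusted p = 0.0477). Gfap, the filament that marks reactive Müller cells and astrocytes, was above every naïve mouse in every vehicle mouse but varied more than 3-fold among them, at 26.6, 44.7 and 41.9 against 160.0, 89.6 and 321 CPM, and did not pass (log2 fold change 2.33, SE 0.65, adjusted p = 0.0766).

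Leukaemia inhibitory factor, released by Müller cells, protects photoreceptors through the receptor chain gp130, the kinases of the JAK family and the transcription factor STAT3. Of 19 genes of this pathway, 3 were called higher and 0 lower, with a median log2 fold change of 0.62. The ligand Lif had 7, 13 and 27 counts in naïve and 81, 67 and 161 counts in vehicle mice, or 0.269, 0.49 and 0.99 against 2.9, 2.37 and 5.41 CPM (log2 fold change 2.60, SE 0.47, adjusted p = 0.0185). Socs3, the feedback inhibitor that STAT3 induces, had 3.27, 5.39 and 4.91 against 15.8, 15.9 and 48.2 CPM (log2 fold change 2.56, SE 0.50, adjusted p = 0.026). Cebpb, a transcription factor downstream of these cytokines, had 4.73, 4.71 and 6.16 against 12.8, 13.2 and 19 CPM (log2 fold change 1.53, SE 0.27, adjusted p = 0.0173). Vehicle mouse 3 had the highest value of all 3 genes. Stat3 itself lay above all naïve mice in all vehicle mice without passing the test, at 64.8, 101 and 126 against 145, 129 and 247 CPM (log2 fold change 0.84, SE 0.30, adjusted p = 0.117).

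The promoter of Lif, the highest called gene of the pathway, is shown for the 250 bases before its start, chr11:4257318-4257567 on the + strand of GRCm38.p6, from RefSeq. Capitals mark a match to the AP-1 motif TGANTCA, 228 to 222 bases before the start. No match to TTCNNNGAA was found in it.
Lif: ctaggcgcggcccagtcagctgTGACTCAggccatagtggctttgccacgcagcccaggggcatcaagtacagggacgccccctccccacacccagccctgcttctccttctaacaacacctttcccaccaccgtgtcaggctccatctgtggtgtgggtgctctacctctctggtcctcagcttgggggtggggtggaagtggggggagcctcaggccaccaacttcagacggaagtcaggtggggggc

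Some genes of iron handling and of the oxidative stress response rose. Of 16 iron genes, 6 were called higher and 0 lower (median 0.86), and of 20 metallothioneins and targets of the oxidative stress factor NRF2, 7 were called higher and 0 lower (median 0.56), 4 without vehicle mouse 2. Hmox1, which degrades haem and belongs to both lists, had 3.92, 4.9 and 6.45 CPM in naïve and 21.1, 15.5 and 69.1 CPM in vehicle mice (log2 fold change 2.79, SE 0.64, adjusted p = 0.042). Ftl1, the ferritin light chain, had 290.1, 269 and 221 against 515, 433 and 628 CPM (log2 fold change 1.02, SE 0.21, adjusted p = 0.0248). Slc7a11, the cystine importer that feeds glutathione synthesis, had 8.22, 9.35 and 14.1 against 37.7, 33.5 and 45.6 CPM (log2 fold change 1.88, SE 0.24, adjusted p = 0.0127), and Prdx6, a peroxiredoxin, 186, 174 and 156 against 379, 341 and 416 CPM (log2 fold change 1.14, SE 0.17, adjusted p = 0.0127). Vehicle mouse 3 was highest and vehicle mouse 2 lowest of the vehicle mice in each of these genes. The metallothionein Mt2 ranged from 155 to 1103 CPM among vehicle mice, against 28.8 to 129 CPM in naïve mice, and did not pass (log2 fold change 2.85, SE 1.08, adjusted p = 0.153).

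Few genes of endoplasmic reticulum and amino acid stress were called. Of 19 genes of the factor ATF4 and the unfolded protein response, 2 were called higher and 1 lower, with a median log2 fold change of -0.01. Nupr1, a stress-induced chromatin protein, had 5.61, 5.05 and 4.44 CPM in naïve and 59.7, 95.8 and 108 CPM in vehicle mice (log2 fold change 4.13, SE 0.44, adjusted p = 0.0127), and Chac1, which degrades glutathione, 2.34, 2.11 and 2.05 against 5.68, 3.81 and 6.85 CPM (log2 fold change 1.33, SE 0.25, adjusted p = 0.0203). Ddit4, an inhibitor of the growth kinase mTORC1 that glucocorticoids also induce, fell, with 185, 146 and 177 against 102, 121 and 103 CPM (log2 fold change -0.64, SE 0.13, adjusted p = 0.0235). The groups did not overlap in these 3 genes. Atf4 itself, the factor, had a log2 fold change of -0.35 (adjusted p = 0.104). Eif4ebp1, a translation repressor that mTORC1 inactivates, was among the genes with the smallest p-values, with 1.88, 1.7 and 1.94 against 8.04, 5.23 and 7.09 CPM (log2 fold change 1.88, SE 0.24, adjusted p = 0.0127), as was the cationic amino acid transporter Slc7a2 (log2 fold change 1.29, adjusted p = 0.0127).

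Of the lists with at least 3 tested members, that of pan-myeloid genes had the largest share of called members. Of 16 genes expressed across macrophages and microglia, 13 were called higher and 0 lower, the median log2 fold change was 2.67, and their summed level was 41.4, 42 and 41.7 CPM in naïve and 166, 136 and 224 CPM in vehicle mice. In all 16 the vehicle mice were above the naïve mice. Fcer1g, the signalling chain of Fc receptors, had 1.34, 1.28 and 0.843 CPM in naïve and 13, 8.8 and 18.5 CPM in vehicle mice (log2 fold change 3.54, SE 0.81, adjusted p = 0.0393). Laptm5, a lysosomal membrane protein of leukocytes, had 3.00, 3.69 and 3.45 against 26.3, 18.9 and 30.2 CPM (log2 fold change 2.89, SE 0.57, adjusted p = 0.0268). Sfpi1, which encodes the myeloid master factor PU.1, had 0.423, 0.301 and 0.513 against 2.93, 2.76 and 5.68 CPM (log2 fold change 3.18, SE 0.73, adjusted p = 0.0316). Vehicle mouse 2 was the lowest vehicle mouse in all 3.

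Some genes of resting microglia rose as well. Of 14 such genes, 5 were called higher and 0 lower, with a median of 1.26. Cx3cr1, the fractalkine receptor of microglia, had 3.38, 3.13 and 2.13 CPM in naïve and 12.2, 11 and 13 CPM in vehicle mice (log2 fold change 2.07, SE 0.44, adjusted p = 0.0268). Csf1r, the receptor on which microglia depend for survival, had 8.8, 7.61 and 10.4 against 30.6, 29.9 and 38 CPM (log2 fold change 1.88, SE 0.35, adjusted p = 0.0216). The groups did not overlap in either gene. Of the 21 genes listed for disease-associated microglia, 17 also belong to another list. Of 20 tested genes of disease-associated microglia, 15 were called higher, with a median of 1.45. Trem2, the lipid receptor that drives this state, had 2.00, 1.47 and 1.25 CPM in naïve and 21.8, 11.1 and 31.8 CPM in vehicle mice (log2 fold change 3.78, SE 0.75, adjusted p = 0.0288), and Spp1, the secreted protein osteopontin, 8.11, 8.67 and 9.38 against 137, 69.4 and 158 CPM (log2 fold change 3.80, SE 0.70, adjusted p = 0.0294). Both varied more than 2-fold among the vehicle mice, with the lowest value in mouse 2. Apoe, the lipid carrier that Müller cells also make, had 848, 723 and 568 against 1873, 1795 and 2073 CPM (log2 fold change 1.42, SE 0.36, adjusted p = 0.0486).

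Most genes of the monocyte and tissue macrophage, neutrophil and lymphocyte lists had too few counts to be tested. Of 16 genes of monocytes and tissue macrophages, 7 had enough counts to be tested and 1 was called, Ms4a7, with 0, 0 and 2 counts in naïve and 43, 16 and 86 counts in vehicle mice, at least 14.8-fold higher against the floor of 3 counts per mouse. Lyz2, the lysozyme of macrophages, had 0.768, 1.92 and 0.806 CPM in naïve and 92.5, 44.2 and 94 CPM in vehicle mice and did not pass (log2 fold change 6.04, SE 1.62, adjusted p = 0.0741). Of 9 neutrophil genes in the tables only Csf3r was tested, and of 12 lymphocyte genes 1 was tested. Csf3r, the receptor for granulocyte colony-stimulating factor, had 0.346, 0.528 and 0.476 against 2.11, 2.47 and 2.49 CPM (log2 fold change 2.38, SE 0.56, adjusted p = 0.0318). Its groups did not overlap. The defining neutrophil genes S100a8 and S100a9 and the T cell genes Cd3d and Cd3e had too few counts to be tested.

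Most Fc receptor and lectin genes rose. Of 7 Fc receptor genes 5 were called higher (median 3.30), among them Fcgr3, a low-affinity receptor for immunoglobulin G, with 0.884, 0.565 and 1.28 CPM in naïve and 7.36, 5.93 and 13.7 CPM in vehicle mice (log2 fold change 3.30, SE 0.76, adjusted p = 0.0368). Of 16 lectins, siglecs and scavenger receptors, 11 were called higher and 1 lower, with a median of 2.25. Lilrb4, an inhibitory leukocyte receptor, had 0, 3 and 1 counts in naïve and 78, 43 and 159 counts in vehicle mice, at least 28.5-fold higher against the floor. Msr1, a scavenger receptor for modified lipoproteins, had 0.0768, 0.264 and 0.403 against 5.9, 2.97 and 11.4 CPM (log2 fold change 4.74, SE 0.94, adjusted p = 0.0255). Both rose most in vehicle mouse 3 and least in vehicle mouse 2. Lgals1, a galectin, had 20.02, 20.2 and 14.5 against 54.7, 51.5 and 70.2 CPM (log2 fold change 1.69, SE 0.32, adjusted p = 0.0246), and Lgals3bp, a secreted galectin-binding glycoprotein, 9.99, 13.5 and 13.4 against 27, 42.7 and 77.8 CPM (log2 fold change 2.00, SE 0.46, adjusted p = 0.042). The groups did not overlap in either gene. The 1 member called lower was Siglece, an inhibitory sialic acid receptor named here after its value was seen, with 7.15, 5.31 and 5.5 CPM in naïve and 2.61, 3.39 and 3.19 CPM in vehicle mice (log2 fold change -0.96, SE 0.21, adjusted p = 0.0255).

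Lgals3, which encodes galectin-3, the target of the study, had 264, 193 and 153 counts in naïve and 1011, 1077 and 2001 counts in vehicle mice (log2 fold change 2.62, SE 0.52, adjusted p = 0.0289), with no overlap and the highest value in vehicle mouse 3. Its promoter is shown as that of the study target, the RefSeq window of 250 bases before the start, chr14:47373610-47373859 on the + strand of GRCm38.p6. None of the 6 motifs searched was found in it, so that no letters are in capitals.
Lgals3: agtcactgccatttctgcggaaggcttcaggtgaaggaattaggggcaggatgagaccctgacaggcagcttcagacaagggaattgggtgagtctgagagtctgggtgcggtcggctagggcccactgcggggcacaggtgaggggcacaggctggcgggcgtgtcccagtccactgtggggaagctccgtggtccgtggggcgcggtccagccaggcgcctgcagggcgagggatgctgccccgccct

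Many lysosomal genes rose. Of 29 lysosomal genes, 15 were called higher and 0 lower, with a median log2 fold change of 0.59. Ctsd, an aspartic protease of the lysosome, had 488, 534 and 460.1 CPM in naïve and 1397, 1091 and 1615 CPM in vehicle mice (log2 fold change 1.47, SE 0.27, adjusted p = 0.0216). Ctsz, a cysteine carboxypeptidase of the lysosome, had 54.1, 47.6 and 40.4 against 122, 95.5 and 156 CPM (log2 fold change 1.40, SE 0.25, adjusted p = 0.0207), and Psap, the precursor of the saposins that help digest sphingolipids, 959.9, 1004 and 971 against 1263, 1330.1 and 1269.9 CPM (log2 fold change 0.40, SE 0.10, adjusted p = 0.0413). All vehicle mice were above all naïve mice in these 3 genes. Of 15 genes for the clearance of apoptotic cells, 7 were called higher and 0 lower (median 0.52). Axl, a receptor tyrosine kinase for dying cells, had 11.9, 16.7 and 13.7 against 36.1, 27.8 and 46.6 CPM (log2 fold change 1.39, SE 0.31, adjusted p = 0.0319), while the bridging molecule Mfge8 had 446, 393 and 364 against 403, 405 and 410.0 CPM (log2 fold change 0.02, SE 0.10, adjusted p = 0.923).

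Lipid genes were grouped into efflux and synthesis. Of 13 genes of cholesterol efflux and lipid droplets, 7 were called higher and 0 lower (median 0.79), whereas of 18 genes of cholesterol synthesis 0 were called higher and 1 lower (median -0.23). Plin2, the coat protein of lipid droplets, had 8.68, 8.48 and 5.86 CPM in naïve and 31.5, 22.1 and 49.4 CPM in vehicle mice (log2 fold change 2.16, SE 0.34, adjusted p = 0.0168). Tspo, a mitochondrial cholesterol-binding protein used as a marker of reactive microglia, had 5.96, 8.1 and 4.51 against 13.9, 17.7 and 20.9 CPM (log2 fold change 1.50, SE 0.33, adjusted p = 0.029). In both genes the groups did not overlap.

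Complement genes varied widely among the vehicle mice. Of 19 tested components and receptors, 5 were called higher and 0 lower, 3 without vehicle mouse 2, although 13 had all vehicle mice above all naïve mice and the median log2 fold change was 2.61. C1qa, a chain of the starter of the classical pathway made by microglia, had 8.72, 8.29 and 10.2 CPM in naïve and 85.4, 58.4 and 126 CPM in vehicle mice and did not pass (log2 fold change 3.31, SE 0.82, adjusted p = 0.0605). C3ar1, the receptor for the fragment C3a, had 0.115, 0.452 and 0.367 against 6.76, 4.27 and 9.14 CPM (log2 fold change 4.41, SE 1.06, adjusted p = 0.0438). Both had the highest value in vehicle mouse 3 and the lowest in vehicle mouse 2. Cfb, factor B of the alternative pathway, had 0.0384, 0.264 and 0.147 against 0.715, 2.9 and 3.09 CPM (log2 fold change 3.86, SE 0.76, adjusted p = 0.0216), and Serping1, the inhibitor of the C1 complex, 5.65, 10.4 and 4.98 against 61.2, 81.5 and 103 CPM (log2 fold change 3.55, SE 0.81, adjusted p = 0.0493). DESeq2 called 11 members higher.

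Most genes of antigen presentation by MHC class I rose, with 11 of 15 called higher, 0 lower and a median log2 fold change of 1.70. The calls fell to 1 without naïve mouse 1, naïve mouse 3 or vehicle mouse 3, to 0 without naïve mouse 2 and to 6 without vehicle mouse 1. Nlrc5, the transactivator of these genes, had 0.461, 0.452 and 0.33 CPM in naïve and 3.72, 2.26 and 5.71 CPM in vehicle mice (log2 fold change 3.22, SE 0.49, adjusted p = 0.0127). H2-K1, a classical heavy chain, had 51.9, 51.4 and 44.8 against 118, 143 and 219 CPM (log2 fold change 1.70, SE 0.35, adjusted p = 0.0304). Psmb8, a subunit of the immunoproteasome, had 4.57, 3.47 and 3.01 against 14.7, 17.1 and 34.1 CPM (log2 fold change 2.58, SE 0.51, adjusted p = 0.0263). In all 3 genes vehicle mouse 3 had the highest value. The heavy chains are near-identical copies among which reads can be split, so that their separate values are uncertain. Of 6 class II genes, 2 were called higher (median 1.83, and 1.17 without vehicle mouse 2): H2-Aa, with 0, 1 and 3 counts in naïve and 25, 64 and 22 counts in vehicle mice, at least 11.5-fold higher against the floor, and the invariant chain protease Ctss, with 8.95, 8.82 and 12.3 against 27.3, 29.1 and 36.5 CPM (log2 fold change 1.62, SE 0.28, adjusted p = 0.0184).

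The interferon response was called in most of its genes, at unequal levels among the vehicle mice. Of 26 interferon-stimulated genes, 15 were called higher and 0 lower, with a median log2 fold change of 2.22. The summed level was 197, 241 and 213 CPM in naïve and 319, 419 and 821 CPM in vehicle mice. Oasl2, of the family that senses double-stranded RNA, had 2.42, 3.28 and 1.87 CPM in naïve and 14.3, 25.9 and 61.5 CPM in vehicle mice (log2 fold change 3.75, SE 0.71, adjusted p = 0.0273). Usp18, which limits interferon signalling, had 0.461, 1.02 and 1.06 against 1.43, 3.28 and 12.9 CPM (log2 fold change 2.79, SE 0.73, adjusted p = 0.0487). In both genes vehicle mouse 3 was far above the other vehicle mice. Stat2, a signal transducer of interferon receptors, had overlapping groups, with 57.4, 62.6 and 51.1 against 50.1, 54.4 and 90.7 CPM (log2 fold change 0.19, SE 0.20, adjusted p = 0.568). Without vehicle mouse 3, 0 members were called and the median was 1.32, and 0 were called without any 1 of the naïve mice.

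Oas1a, a sensor of double-stranded RNA, had the highest called log2 fold change of the list, with 1, 4 and 1 counts in naïve and 12, 30 and 72 counts in vehicle mice (log2 fold change 4.04, SE 0.82, adjusted p = 0.0235). Its promoter is shown for that reason, the RefSeq window of 250 bases before the start, chr5:120907526-120907775 on the - strand of GRCm38.p6. Capitals mark a match to TTCNNNGAA, 98 to 90 bases before the start, and 2 overlapping matches to GAAANNGAA, the core of the interferon-stimulated response element (ISRE), 20 to 6 bases before it.
Oas1a: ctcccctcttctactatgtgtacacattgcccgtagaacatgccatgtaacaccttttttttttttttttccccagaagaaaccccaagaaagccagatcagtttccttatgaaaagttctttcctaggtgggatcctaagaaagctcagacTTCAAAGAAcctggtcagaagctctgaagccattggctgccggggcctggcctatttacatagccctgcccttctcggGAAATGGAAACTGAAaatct

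Over both strands of the 250 bases before the start of a gene, the ISRE core GAAANNGAA was found in 8.18% of the 27025 genes of the promoter table and in 13 of the 22 interferon-stimulated genes with a window, or 59.1%, of 26 tested. The CRX core TAATCC was found in 7.21% of all genes and in 11.9% of the 360 of 439 genes called lower that had a window. The AP-1 motif TGANTCA was found in 7.82% of all genes, the STAT motif TTCNNNGAA in 8.13%, the core GAGGAA bound by PU.1 in 25.9% and the E-box CACGTG in 6.86%. Of the lists searched, 6 had a window for at least 80% of their genes, or 11 to 22 genes each. The ISRE core ranged from 0% of the LIF, gp130 and STAT3 list to the 59.1% of the interferon list, the AP-1 motif from 0% of the MHC class I list to 27.3% of the interferon list, and the CRX core from 0% of the MHC class I and pan-myeloid lists to 36.4% of the photoreceptor transcription factors. The STAT motif ranged from 5.88% of the LIF, gp130 and STAT3 list, or 1 of 17 genes, to 27.3% of the interferon list and of the photoreceptor transcription factors. The PU.1 core ranged from 15.4% of the MHC class I list to 54.5% of the photoreceptor transcription factors, and the E-box from 0% of 3 lists to 11.8% of the LIF, gp130 and STAT3 list. These are matches of letters, not binding sites, and the STAT, ISRE and PU.1 letters can overlap in GAA. Of the rod genes 24 of 32, of the ribbon synapse genes 15 of 20 and of the genes called higher 566 of 746 had a window, under the 80% taken as the minimum, so that their shares are not given.

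Some sensors of innate immunity and targets of NF-kB rose. Of 22 genes of Toll-like receptors and the factor NF-kB, 9 were called higher and 0 lower (median 1.17). Tlr7, a sensor of single-stranded RNA, had 3, 1 and 1 counts in naïve and 46, 17 and 40 counts in vehicle mice, at least 10.6-fold higher against the floor. Tlr2, a sensor of lipoproteins, had 0.154, 0.641 and 0.733 CPM in naïve and 2.18, 4.06 and 4.5 CPM in vehicle mice (log2 fold change 2.80, SE 0.65, adjusted p = 0.032). Icam1, an adhesion molecule for leukocytes that NF-kB induces, had 1.04, 0.452 and 0.44 against 5.47, 5.62 and 11.6 CPM (log2 fold change 3.55, SE 0.81, adjusted p = 0.0351). All 3 genes had every vehicle mouse above every naïve mouse. Tnfaip3, the NF-kB inhibitor A20, had the opposite direction without passing, with 365, 266 and 254 against 139, 183 and 102 CPM and no overlap (log2 fold change -1.06, SE 0.28, adjusted p = 0.0536). Casp1, the protease of the inflammasome, had 0.0768, 0.188 and 0.0367 against 2.00, 1.55 and 4.54 CPM (log2 fold change 4.69, SE 0.85, adjusted p = 0.0192) and was the 1 called gene of 6 tested genes of its list, while Il1b and Nlrp3 had too few counts to be tested.

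Of 11 tested chemokines 3 were called higher and 0 lower (median 1.43). The monocyte attractant Ccl2 had 0, 0 and 0 counts in naïve and 39, 45 and 81 counts in vehicle mice, at least 16.9-fold higher against the floor, and the neutrophil attractant Cxcl1 had 0, 0 and 0 against 39, 47 and 62 counts, at least 15.2-fold higher. Cxcl16, a membrane-bound chemokine and scavenger receptor, had 23.4, 18.2 and 14.1 against 53.3, 44 and 52.4 CPM (log2 fold change 1.43, SE 0.36, adjusted p = 0.0463). In none of these 3 genes did the groups overlap. Of 18 cytokines and receptors 8 were called higher and 0 lower (median 0.99). Among them were the death receptor Tnfrsf1a, with 8.84, 12 and 14.3 against 40.8, 38.5 and 78.5 CPM (log2 fold change 2.17, SE 0.45, adjusted p = 0.0302), and the alarmin Il33 of Müller cells, with 35.2, 58.5 and 47.9 against 79.5, 77.5 and 108 CPM (log2 fold change 0.90, SE 0.23, adjusted p = 0.0456). Il6 and Tnf, both classical pro-inflammatory cytokines, had too few counts to be tested.

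**Figure D4:**
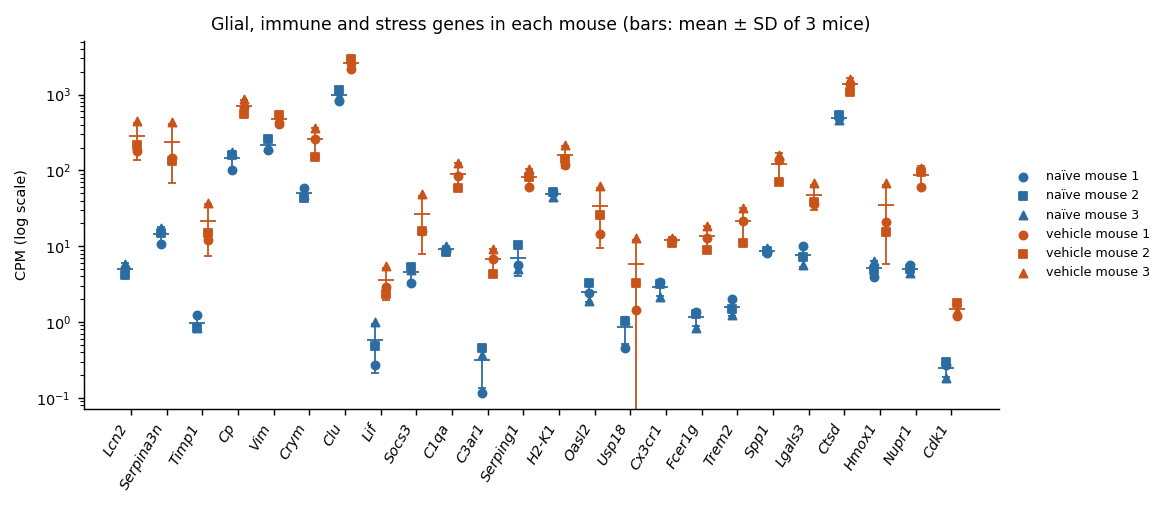
CPM (log axis) of 24 genes of glia, immune response, lysosome, stress and cell cycle in each of the 3 naïve (blue) and 3 vehicle mice (orange), with marker shapes for mice 1 to 3 and bars for mean ± SD, cut at the lower end of the axis for Usp18. In every gene shown all vehicle mice lie above all naïve mice, and vehicle mouse 3, the orange triangle, is the highest in 21 of the 24.

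Some genes of dividing cells rose. Of 17 cell cycle genes 5 were called higher and 0 lower, with a median log2 fold change of 0.27. Top2a, a topoisomerase of dividing cells, had 0, 0 and 1 counts in naïve and 25, 86 and 75 counts in vehicle mice, at least 19.1-fold higher against the floor. Mki67, the proliferation marker Ki-67, had 2, 5 and 0 against 80, 85 and 117 counts (log2 fold change 5.15, SE 0.93, adjusted p = 0.0196), and the mitotic kinase gene Cdk1 7, 8 and 5 against 34, 51 and 42 counts (log2 fold change 2.54, SE 0.44, adjusted p = 0.0171). All naïve mice had at most 8 counts of these 3 genes and all vehicle mice at least 25. Ccnd1, the cyclin of entry into the cycle that Müller cells express, had 11.8, 20.5 and 19.6 against 25.7, 32 and 30.6 CPM (log2 fold change 0.76, SE 0.20, adjusted p = 0.042), while Ccna2 had 33.8, 43.2 and 38.5 against 28.9, 30.2 and 28.6 CPM (log2 fold change -0.40, SE 0.16, adjusted p = 0.139).

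Some proteases and their inhibitors rose, with 7 of 16 called higher, 0 lower and a median of 1.06. Timp1, a secreted inhibitor of metalloproteinases, had 1.23, 0.829 and 0.843 CPM in naïve and 12, 14.9 and 37.7 CPM in vehicle mice (log2 fold change 4.47, SE 0.66, adjusted p = 0.0171), and its constitutive relative Timp2 108, 118 and 122 against 242, 234 and 239 CPM (log2 fold change 1.04, SE 0.15, adjusted p = 0.0127). Timp1 was highest in vehicle mouse 3, whereas Timp2 was even among the vehicle mice. Plau, the urokinase that activates plasminogen, had 0.884, 1.02 and 0.55 against 11.6, 9.11 and 15.4 CPM (log2 fold change 3.88, SE 0.52, adjusted p = 0.0127), and Mmp12, the macrophage elastase, 0.115, 0.0377 and 0.183 against 2.18, 0.883 and 2.92 CPM (log2 fold change 4.10, SE 0.77, adjusted p = 0.0203). Of 21 structural matrix genes 2 were called higher, Spp1 and the thrombospondin gene Thbs1, and 0 lower. In all 4 genes named the groups did not overlap. Thbs1 had 7.72, 10.7 and 6.52 against 34.4, 29.99 and 25.5 CPM (log2 fold change 1.85, SE 0.21, adjusted p = 0.0127). The basement membrane collagen Col4a1 had 75.4, 86.1 and 78.2 against 60.9, 664 and 81.4 CPM, high only in vehicle mouse 2, the library with lens RNA, and the median of the list went from 0.67 to 0.25 without that mouse.

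Single growth factor genes were called. Of 18 genes of transforming growth factor beta signalling 3 were called higher and 0 lower (median 0.54, and 0.305 without vehicle mouse 2): the ligands Tgfb1, with 3.34, 3.09 and 2.68 CPM in naïve and 6.94, 9.82 and 8.64 CPM in vehicle mice (log2 fold change 1.48, SE 0.20, adjusted p = 0.0127), and Tgfb2, with 72.5, 80.9 and 80.1 against 114, 114 and 113 CPM (log2 fold change 0.54, SE 0.08, adjusted p = 0.0127), and the receptor Tgfbr2 (log2 fold change 1.29, adjusted p = 0.0211). Both ligands had every vehicle mouse above every naïve mouse. Of 18 endothelin and growth factor genes 2 were called higher and 0 lower (median 0.45): the receptors Egfr, with 2.15, 2.86 and 4.51 against 6.61, 7.14 and 8.7 CPM (log2 fold change 1.24, SE 0.28, adjusted p = 0.0288), and Fgfr1, with 31.5, 39.9 and 50.2 against 73.3, 85.1 and 92.8 CPM (log2 fold change 1.05, SE 0.25, adjusted p = 0.0368). Of 19 genes of p53, apoptosis and necroptosis 1 was called, the death receptor Fas, with 0.615, 0.339 and 0.843 against 2.32, 3.39 and 7.32 CPM (log2 fold change 2.85, SE 0.53, adjusted p = 0.0192), while the median of the list was 0.17. This share was near the 4.91% of all tested genes called higher. The groups did not overlap in Egfr, Fgfr1 or Fas. Of 14 heat shock genes 2 were called higher and 0 without vehicle mouse 2, Bag3, a co-chaperone of aggregate clearance, with 7.18, 7.46 and 10.2 against 14.2, 16.3 and 24.9 CPM (log2 fold change 1.16, SE 0.29, adjusted p = 0.0386), and Hsp90ab1 (log2 fold change 0.33, adjusted p = 0.0489).

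Lists of vessels and of neighbouring tissue had few or no calls. Of 17 endothelial genes 1 was called higher, Mfsd2a, a lipid transporter of the blood-retina barrier, with 5.11, 6.14 and 5.79 CPM in naïve and 7.79, 10.2 and 16 CPM in vehicle mice (log2 fold change 0.99, SE 0.25, adjusted p = 0.0371). This share was near the 4.91% of all tested genes, and the median of the list was 0.25, but 0.075 without naïve mouse 3. Of 11 pericyte and smooth muscle genes edgeR called none, 5 had an unadjusted p under 0.05 and DESeq2 called 2 higher and 1 lower. Of 12 pigment epithelium genes none was called by edgeR or DESeq2, 0 had an unadjusted p under 0.05, and the summed level was 232, 326 and 164 CPM in naïve and 345, 578 and 266 CPM in vehicle mice, highest in vehicle mouse 2. The pigment epithelium values overlapped between the groups. Of 7 astrocyte genes Aldh1l1 was called higher, with 21.2, 32.8 and 28.1 against 67.2, 55.3 and 81.9 CPM (log2 fold change 1.32, SE 0.33, adjusted p = 0.0459). Of 4 oligodendrocyte genes 1 was called higher, Cnp (log2 fold change 0.63, adjusted p = 0.0346), and 1 lower, 0 without vehicle mouse 2.

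Among housekeeping and rhythm lists, 2 of 20 ribosomal protein genes were called higher, 1 without vehicle mouse 2, and 0 lower, with a median of 0.13. Of 16 clock genes 1 was called lower, Arntl, which encodes the clock activator BMAL1, with 102, 103 and 112 CPM in naïve and 64.2, 80.1 and 67.8 CPM in vehicle mice (log2 fold change -0.58, SE 0.14, adjusted p = 0.0331), and 0 higher. Of 16 immediate early genes 2 were called higher and 1 lower, and 1 and 0 without vehicle mouse 2. Fosl1, a member of the AP-1 family, had 0.0768, 0.0754 and 0.696 against 3.07, 1.2 and 6.12 CPM (log2 fold change 3.58, SE 0.80, adjusted p = 0.0297), its relative Jund had a log2 fold change of 0.40 (adjusted p = 0.0456), and Nr4a1, an orphan nuclear receptor induced by activity, had 57.6, 38.7 and 65.9 against 24.5, 28.4 and 35.8 CPM (log2 fold change -0.87, SE 0.19, adjusted p = 0.0285). The groups did not overlap in Arntl, Fosl1 or Nr4a1. The time of day at which retinas were taken was not given in the sources used here.

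Outside the lists, 4 of the genes described here stood among the 15 highest called genes with no overlap and at least 50 counts on average. Mpeg1, the pore-forming perforin-2 of macrophages, had 0.692, 1.21 and 1.25 CPM in naïve and 25.1, 14.7 and 27.8 CPM in vehicle mice (log2 fold change 4.42, SE 0.92, adjusted p = 0.0349), Ms4a6d, a macrophage membrane protein, 0.0768, 0.226 and 0.367 against 4.36, 2.15 and 6.85 CPM (log2 fold change 4.28, SE 0.89, adjusted p = 0.0268), and Emr1, which encodes the macrophage marker F4/80, 0.346, 0.226 and 0.183 against 4.68, 3.07 and 4.44 CPM (log2 fold change 3.99, SE 0.62, adjusted p = 0.0127). All 3 were lowest in vehicle mouse 2 among the vehicle mice. The fourth was Hal, the histidase that deaminates histidine, with 0.0384, 0.151 and 0.0733 against 3.25, 2.23 and 5.44 CPM (log2 fold change 5.31, SE 0.80, adjusted p = 0.0127). Gatm, the enzyme of the committed step of creatine synthesis, was instead among the genes with the smallest p-values, with 1.96, 2.56 and 2.2 against 11.9, 7.66 and 14.5 CPM (log2 fold change 2.34, SE 0.31, adjusted p = 0.0127), as was Spon1, the matrix protein F-spondin, with 111, 87.4 and 111 against 212, 209 and 207 CPM (log2 fold change 1.02, SE 0.13, adjusted p = 0.0127).

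At the other end, several genes outside the lists had some of the smallest p-values among those called lower. Fam161a, a ciliary protein whose loss causes retinitis pigmentosa, had 210.0, 219 and 215 CPM in naïve and 104, 126 and 93.4 CPM in vehicle mice (log2 fold change -0.99, SE 0.15, adjusted p = 0.0127). Optn, the autophagy receptor optineurin, had 188, 189 and 195 against 121, 126 and 128 CPM (log2 fold change -0.61, SE 0.09, adjusted p = 0.0127). Taok3, a stress kinase, had 204, 184 and 186 against 106, 111 and 89 CPM (log2 fold change -0.91, SE 0.13, adjusted p = 0.0127), and Ppp3cc, a catalytic subunit of calcineurin, 191, 186 and 198 against 114, 134 and 114 CPM (log2 fold change -0.67, SE 0.10, adjusted p = 0.0127). In each of these genes the 3 vehicle mice were below every naïve mouse. Of the lowest log2 fold changes, Kif20b, a mitotic kinesin, had 4.84, 3.66 and 4.22 against 1.89, 2.26 and 1.41 CPM (log2 fold change -1.19, SE 0.25, adjusted p = 0.0246), and Tmlhe, the enzyme of the opening step of carnitine synthesis, 78.7, 56.9 and 46.2 against 27.4, 31.5 and 22.9 CPM (log2 fold change -1.15, SE 0.20, adjusted p = 0.0177).

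Vehicle mice differed in their distance from the naïve mice. Mouse 2 held lens and muscle RNA, and mouse 3 alone among the vehicle mice had high Xist. The part of either in these differences was not tested. Vehicle mouse 3 had the highest value of the 3 vehicle mice in 457 of the 746 genes called higher, or 61.3%, and the lowest in 239 of the 439 called lower, or 54.4%. Vehicle mouse 2 was nearest to the naïve mice in 367 of the former, or 49.2%, and in 272 of the latter, or 62.0%. The median log2 difference of the rod list from the naïve mean was -0.56, -0.39 and -0.92 in vehicle mice 1 to 3, that of the reactive gliosis list 1.33, 1.85 and 1.80 and that of the interferon list 1.02, 1.47 and 3.07. Mouse 3 was farthest from the naïve mice in the rod and interferon lists, and mice 2 and 3 were close to each other in the gliosis list. The gliosis median of mouse 2, the library with lens and muscle RNA, combined members that peaked there and members that were lowest there. Anxa1 had 1176, 5041 and 2070 and Emp1 83, 1019 and 126 counts in vehicle mice 1 to 3. Gfap had 4476, 2538 and 9552 and Cp 19194, 15782 and 25711 counts. With 3 mice, the relation between the loss of rod transcripts and the size of the glial or interferon response was not tested.

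**Figure D5:**
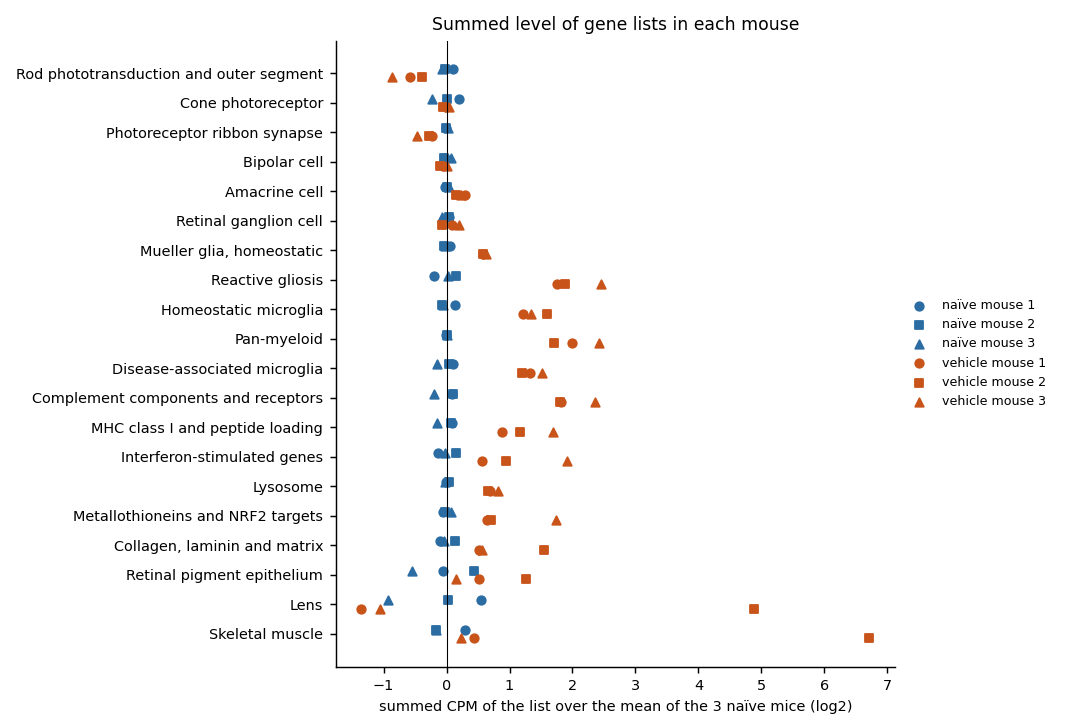
Summed CPM of 20 lists in each mouse over the mean of the 3 naïve mice (log2 scale), with naïve mice in blue, vehicle mice in orange and marker shapes for mice 1 to 3. Rod and ribbon synapse lists lie to the left and glial, myeloid, complement, MHC class I, interferon and lysosome lists to the right of all naïve mice in all vehicle mice, whereas in the lens and skeletal muscle lists vehicle mouse 2 alone lies far to the right.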

How the data were processed

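RNA was measured in whole retinas by stranded, single-read poly(A) sequencing on an Illumina NextSeq. The authors deposited gene counts made with Illumina BaseSpace RNA Express, one table per mouse and flow cell run, on the build mm10 per the labels. The aligner version, annotation and use of strand were not given in the sources used here, so that reads of overlapping or antisense genes may not have been told apart. The values are whole, unscaled counts. The labels name separate samples of each group and nothing more, so that p-values measure the spread between these samples.

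The 2 runs of each mouse were added up, and rows without a gene (no feature, 16.5 to 19.9% of the counts of the 6 mice, and ambiguous, 0.374 to 0.471%) were left out. Of 23420 gene symbols, 15196 passed filterByExpr. No mitochondrial genes were in the tables. All 9 mice were fitted together with edgeR 4.0.16 in R 4.3.3 (TMM, robust quasi-likelihood F test), vehicle was compared with naïve, and p-values were adjusted by Benjamini-Hochberg over all tested genes. Standard errors are the log2 fold change divided by the square root of F. Levels in CPM were scaled by TMM factors. In data simulated for the comparison of vehicle with naïve over 14892 genes, the fit found 64 of 88 genes changed by a log2 fold change of 1 and 105 of 112 changed by 2, with 11 false calls. The simulation used the fitted spread, changed only genes above a minimum average level and gave no mouse lens or muscle RNA. Recovery of genes near the floor was therefore not tested. Alternatives were DESeq2 1.42.0, limma 3.58.1 voom, other scalings and filters, both groups alone, single runs, the replicate number as a block, a spline on transcript length and GC content from GENCODE M21 with 4 degrees of freedom, and leaving out each mouse.

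Members and gene lists were chosen with earlier results of these data known. In each list up to 4 called genes with the largest log2 fold change and up to 3 of the highest counts could be named, over all genes the 15 highest and 15 lowest log2 fold changes with a mean of at least 50 counts and no overlap, the 10 smallest p-values in each direction, and Lgals3 and Ccl2. Some of these genes are not reported here. Promoters came from RefSeq for GRCm38.p6. A fold against naïve mice that all had at most 3 counts was computed against 3 counts per mouse as a lower bound.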

Additional observations from a re-analysis of the deposited data

How the results depend on the processing

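All 746 higher and 439 lower genes kept their sign under every alternative in which they were tested, whereas the counts of called genes moved. DESeq2 called 1355 higher and 1063 lower genes, 2 of them lower past a log2 fold change of 2, and limma voom with quality weights 1867 and 1553, again with 2. With library size alone, 258 genes were lower. After the length and GC correction, 2034 were lower and 2 lower past a log2 fold change of 2. With a mean of at least 50 counts, 79 genes were higher and 0 lower past that threshold. Flow cell run 1 alone gave 2 and run 2 alone 0 genes lower past it. Leaving out 1 of the 9 mice gave 1 to 1167 higher and 0 to 815 lower genes, with 1 to 265 higher and 0 to 2 lower past a log2 fold change of 2. The cause of these differences was not tested.

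Whether the replicate numbers pair the mice cannot be told from these data. The deviations of naïve and vehicle mice of the same number from their group means correlated at -0.056, 0.114 and 0.282. Those of mice of different numbers correlated at -0.281 to 0.191. With the replicate block, 559 genes were higher and 341 lower, 138 and 1 of them past a log2 fold change of 2. Called members then went from 11 to 4 in the MHC class I list, from 15 to 5 in the interferon list, from 9 to 5 in the Toll-like receptor list, from 8 to 5 in the cytokine list, from 7 to 3 in the metallothionein and NRF2 list, from 5 to 3 in the complement and Fc receptor lists, from 2 to 0 in the heat shock list, from 2 to 1 in the growth factor list and from 1 to 0 in the astrocyte list.

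Of the log2 fold changes of named genes, 783 of 1341 values from leaving out a mouse and 1483 of 1609 from other alternatives kept direction and call, and 547 and 97 lost the call with the same direction. Genes that turned direction had no call in the first place. Leaving out a mouse gave -0.168 to 2.23 for Col4a1, -0.042 to 0.112 for Mfge8, -0.303 to 0.079 for Opn1sw and -0.128 to 0.357 for Stat2. The length and GC correction gave -0.155 for Mfge8, and limma voom 0.008 for Opn1sw and -0.034 for Stat2. Of 720 medians of lists of at least 0.3 in size, 4 changed sign. Smaller medians changed sign under at least 1 alternative in the cone, bipolar, horizontal, oligodendrocyte, pericyte, clock, immediate early, ribosomal protein, oxidative phosphorylation and ATF4 lists. At the depth of these libraries, monocyte, neutrophil and lymphocyte genes were mostly under the filter, so that small numbers of such cells were not detectable.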

Other observations

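Among the genes with the largest differences or the smallest p-values, several not described above had groups that did not overlap. Serpina3m, a secreted protease inhibitor next to Serpina3n, had 0.346, 0.377 and 0.183 CPM in naïve and 3.5, 3.21 and 10.6 CPM in vehicle mice (log2 fold change 4.24, SE 0.84, adjusted p = 0.025), and reads can be split between both of these close copies. Gna14, a G protein alpha subunit that activates phospholipase C, had 2.11, 3.05 and 1.98 against 11.9, 10.3 and 13.5 CPM (log2 fold change 2.32, SE 0.27, adjusted p = 0.0127). Anxa3, a phospholipid-binding annexin of the gliosis list, had 1.77, 1.73 and 1.5 against 5.61, 5.72 and 6.99 CPM (log2 fold change 1.87, SE 0.22, adjusted p = 0.0127). All 3 were above every naïve mouse in every vehicle mouse.

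In the other direction, Ttc18, a tetratricopeptide protein of motile cilia, had 9.95, 10.5 and 7.62 CPM in naïve and 3.83, 5.37 and 4.2 CPM in vehicle mice (log2 fold change -1.07, SE 0.20, adjusted p = 0.0192). Zfp143, a zinc finger activator of many promoters, had 33.1, 32.3 and 33.2 against 19.2, 21 and 21.1 CPM (log2 fold change -0.68, SE 0.10, adjusted p = 0.0127). Abca13, a large lipid transporter of the same family as Abca4, had 10.1, 12.4 and 13 against 5.33, 6.96 and 3.93 CPM (log2 fold change -1.13, SE 0.22, adjusted p = 0.0216). All 3 were below every naïve mouse in every vehicle mouse.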
